A study of Mus musculus with 2 samples.

Results

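The collagen genes are the 44 genes, of 32285 in the deposited matrices, whose symbol is Col, a number, the letter a and a number and nothing more. One longer symbol that begins in the same way, Col4a3bp, was left out. By the kind of polymer that their chains form, 11 were grouped as fibrillar collagens, 10 as collagens of the basement membrane and its zone, and 23 as other collagens. A UMI (unique molecular identifier, which counts 1 captured RNA molecule) was found for 43 of them in the cell classes used here, and Col2a1, the chain of cartilage fibrils, had none. At least 20 UMIs in a class were reached by 33 members, namely 9 fibrillar, 10 basement membrane and 14 other collagens.

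Collagens are triple helices of 3 chains that cells secrete or hold at their surface. Fibrillar collagens such as types I, III and V form the ropes of connective tissue and are known as products of fibroblasts. Type IV collagen forms the sheet on which an epithelium rests, and in the prostate that sheet lies under the basal cells. Types VII and XVII are known as anchors that tie basal epithelial cells to it. Type VI forms beaded filaments, and fibril-associated collagens such as types XII, XIV and XVI decorate the surface of fibrils.

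The data are droplet single-cell RNA counts of mouse prostate from 1 library of tumour tissue and 1 library of normal tissue adjacent to a tumour. The tissues were dissociated in collagenase type I at 1 mg/ml for 45 min and then in trypsin, cleared through a 40 µm strainer and sorted for CD45, a surface protein of leukocytes. Sorted CD45+ and CD45- cells of a tissue were loaded together, so the ratio of immune to other cells was set by sorting and loading. Neither the labels nor the file headers name the strain, genotype, age, tumour model or number of animals. The labels describe the cells as CD45+ and epithelial, while fibroblasts are found in both libraries.

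The normal adjacent library held 77855775 UMIs in 6553 barcodes and the tumour library 92188538 in 8237, and 18 barcodes occurred in both. With 1 library per tissue there is no test between the tissues. All 95% intervals below cover counting error only, and each difference is between 1 library and another. Pairs of values give the normal adjacent library and then the tumour library. Levels are CPM, the UMIs of a gene per 1000000 UMIs summed over the cells of a class. They count molecules at their 3' ends with no scaling by length, so they serve to compare classes and libraries and not genes.

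Cells were gated on markers that hold no collagen gene. The gate gave 129 and 227 fibroblasts, 118 and 196 basal cells, 91 and 147 luminal progenitor cells, 140 and 143 other non-immune cells and 5684 and 6980 immune cells. Gated fibroblasts had a median of 8034 and 5906 UMIs per cell and carried Lum at 706 and 845 CPM, Dpt at 435 and 332 CPM and Pdgfra at 264 and 225 CPM. Gated luminal progenitor cells had no UMI of Lum in the normal adjacent library and 0.939 CPM in the tumour library. Smooth muscle genes were also counted in gated fibroblasts, Acta2 at 366 and 369 CPM and Tagln at 928 and 682 CPM, while Myh11 stood at 5.40 and 0.581 CPM and Rgs5 at 0 and 0.581 CPM. Plasma cell and neutrophil genes differed between the libraries in this class. The 3 plasma cell markers summed to 58.6 and 1225 CPM, with Jchain at 2.31 and 1015 CPM and Mzb1 at 0 and 134 CPM, and 1 tumour cell held 53.4% of the tumour UMIs. The 5 neutrophil markers summed to 56.3 and 210 CPM, with 61.8% of the tumour UMIs in 1 cell. The part of these cells in the differences between the libraries was not tested. Of all cells with few immune markers, 5 and 14 lay between the cut of 15 fibroblast marker UMIs per 10000 and its double, and 109 and 197 lay above the double. Markers of a second lineage were carried by 16 and 28 gated fibroblasts, and values without such cells are given where they change a result.

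Among the classes gated here, most collagen genes with enough UMIs were highest in fibroblasts, and a small set was highest in basal cells. Endothelial and mural cells were nearly missing and formed no class of their own. A gene was assigned to a class where its CPM was at least 2 times that in each of the other classes in both libraries, over the genes with at least 50 UMIs. By that rule 23 of the 32 collagen genes with enough UMIs were assigned to gated fibroblasts, against 7.29% of all 15350 genes counted. Basal cells were assigned 2, Col7a1 and Col17a1, the chains of the anchoring collagens, against 1.13% of all genes. No collagen gene was assigned to luminal progenitor cells, against 0.254% of all genes, or to immune cells, against 9.93%. The remaining 7 of the 32 met the rule in no class. These include Col4a6, Col16a1 and Col18a1, which were counted in both fibroblasts and basal cells, Col25a1 in luminal progenitor and basal cells, and Col11a2 in immune cells.

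**Figure D1:**
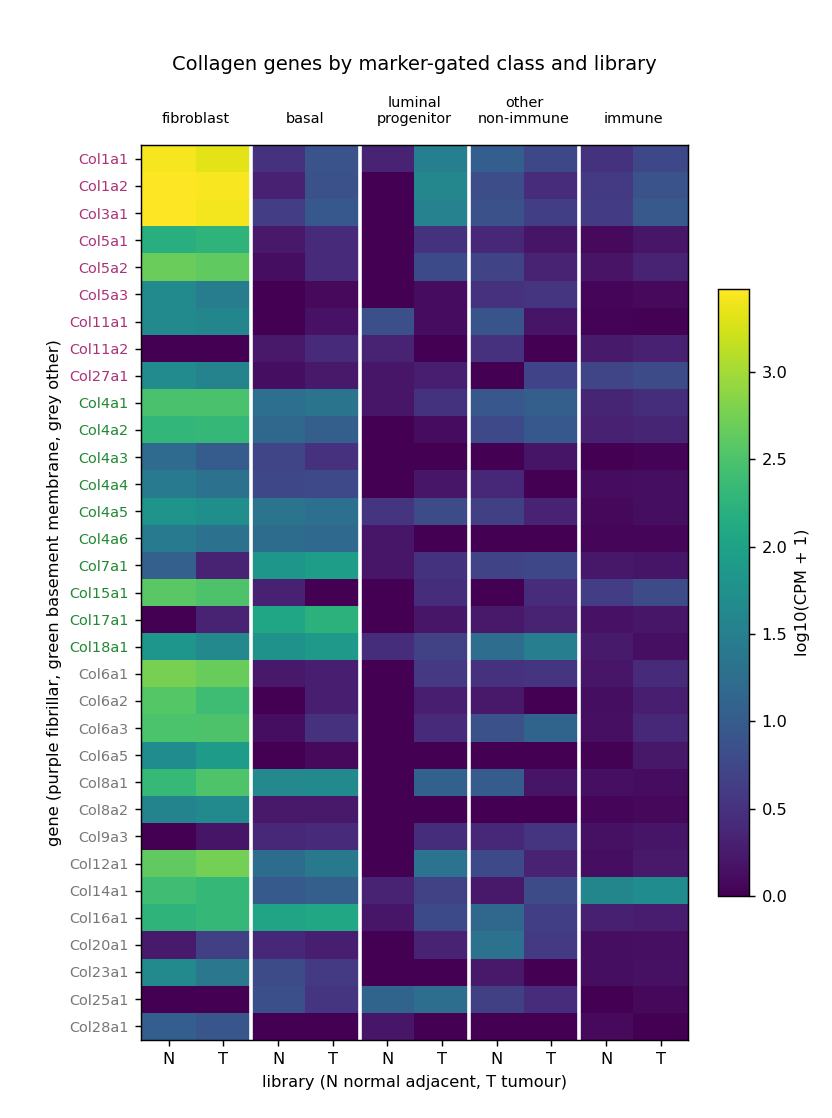
Level of the 33 collagen genes with at least 20 UMIs in a class, as log10 of CPM plus 1 (colour), in 5 marker-gated classes (column pairs) and both libraries (N normal adjacent, T tumour). The fibroblast columns are bright for most rows, and Col7a1 and Col17a1 are brightest in the basal columns.

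The fibrillar collagens together stood at 9331 CPM in gated fibroblasts of the normal adjacent library and 8216 CPM in those of the tumour library, a ratio of 0.880 (95% interval 0.859 to 0.902). Type I collagen is a trimer of Col1a1 and Col1a2 chains. Col1a1 was counted at 2660 and 2149 CPM, in 80.6% and 82.8% of gated fibroblasts. Col1a2 was counted at 2929 and 2755 CPM, in 89.1% and 88.5% of them. Lymphocytes, which do not make fibrillar collagen, had a Col1a1 UMI in 0.925% and 0.786% of cells at a median of 5838 and 5329 UMIs, so the fibroblast shares lie far above that background. With every cell thinned to 1000 UMIs the Col1a1 shares were 63.0% and 64.5% in fibroblasts and 0.238% and 0.318% in lymphocytes. Col3a1, the chain of type III collagen, which is abundant in distensible organs, was counted at 2981 and 2604 CPM.

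The fibrillar ratio in gated fibroblasts lay below or above 1 depending on how cells were weighed. In summed counts it was 0.878 without cells of 2 lineages and 0.909 without the cell highest in each library. When each fibroblast weighed the same, the ratio of the fibrillar sum was 1.06, and with cells thinned to 1000 UMIs it was 1.05. Ratios of Col1a1 and Col3a1 moved in the same way, from 0.81 and 0.87 in the summed counts to 1.05 and 1.08 with cells weighed equally. Per cell, the fibrillar chains made up a median of 53.7 and 52.4 UMIs per 10000, with quartiles of 28.6 and 96.7 in the normal adjacent library and of 28.1 and 87.1 in the tumour library. The medians and quartiles of the libraries lie close together, and the spread among cells of a library is far wider than the gap between libraries. The tenth of fibroblasts with the most fibrillar UMIs held 47.5% and 47.3% of them, and 6 and 12 cells had none.

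The minor fibrillar chains had lower counts. Col5a1 and Col5a2, chains of type V collagen, which lies inside type I fibrils, stood at 150 and 179 CPM and at 474 and 427 CPM in fibroblasts. Col5a3, a further chain of type V, stood at 44.0 and 27.9 CPM, a ratio of 0.63 (0.42 to 0.95) that was 0.97 when each cell weighed the same. Col11a1, a chain known mostly from cartilage, had 58 and 66 UMIs in 22 and 32 fibroblasts. Col27a1, a fibrillar chain with short helix, stood at 47.1 and 34.3 CPM, and its interval for the ratio, 0.50 to 1.06, includes 1. Col11a2 had no UMI in gated fibroblasts, which allows up to 2.31 and 1.74 CPM.

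Basement membrane collagens stood at 1091 and 966 CPM in gated fibroblasts, a ratio of 0.885 (0.824 to 0.95). Col4a1 and Col4a2, which together form the common type IV trimer, were level between the libraries. Col4a1 was counted at 301 and 297 CPM, a ratio of 0.99 (0.86 to 1.13), and Col4a2 at 200 and 202 CPM, a ratio of 1.01 (0.86 to 1.19). Both were also counted in basal cells, Col4a1 at 17.5 and 20.7 CPM and Col4a2 at 14.0 and 10.1 CPM. The rarer chains Col4a5 and Col4a6 were likewise shared, at 61.7 and 52.3 CPM and at 25.5 and 19.2 CPM in fibroblasts. In basal cells they stood at 20.8 and 17.6 CPM and at 15.8 and 14.2 CPM. Col4a3 and Col4a4, chains known from the kidney glomerulus, had 20 and 16 and 35 and 32 UMIs in fibroblasts. Col15a1, whose protein bridges basement membrane and fibrils, stood at 384 and 322 CPM, a ratio of 0.84 (0.74 to 0.95). Col18a1, whose C-terminal end is the source of endostatin, stood at 66.3 and 42.4 CPM, a ratio of 0.64 (0.46 to 0.88).

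The type IV chains that were counted together lie side by side in the genome, head to head on opposite strands, and their promoter windows are printed for that reason. Of the 44 members, 35 have a window of 250 bases before to 50 bases after the start in RefSeq (GRCm38.p6). The starts of Col4a1 and Col4a2 lie 21 bases apart and their windows overlap by 78 bases, while those of Col4a5 and Col4a6 lie 1343 bases apart. Capitals mark CCAAT or its reverse complement ATTGG, and GGGCGG or its reverse complement CCGCCC. The windows are, 5' to 3' on the strand of each gene, chr8:11312777-11313076 (minus strand) for Col4a1, chr8:11312555-11312854 (plus) for Col4a2, chrX:141475169-141475468 (plus) for Col4a5 and chrX:141474027-141474326 (minus) for Col4a6.
Col4a1: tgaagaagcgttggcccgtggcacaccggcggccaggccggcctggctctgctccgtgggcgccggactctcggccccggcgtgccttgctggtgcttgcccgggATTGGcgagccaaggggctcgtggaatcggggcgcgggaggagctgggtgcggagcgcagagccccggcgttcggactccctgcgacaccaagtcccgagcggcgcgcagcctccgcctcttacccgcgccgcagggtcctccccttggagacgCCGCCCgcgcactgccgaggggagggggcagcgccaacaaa
Col4a2: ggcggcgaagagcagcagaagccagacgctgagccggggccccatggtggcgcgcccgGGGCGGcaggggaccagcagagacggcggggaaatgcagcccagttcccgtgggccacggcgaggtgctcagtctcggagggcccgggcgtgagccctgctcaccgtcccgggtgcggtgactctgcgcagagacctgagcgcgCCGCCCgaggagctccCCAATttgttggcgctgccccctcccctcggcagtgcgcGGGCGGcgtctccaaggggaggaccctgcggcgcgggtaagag
Col4a5: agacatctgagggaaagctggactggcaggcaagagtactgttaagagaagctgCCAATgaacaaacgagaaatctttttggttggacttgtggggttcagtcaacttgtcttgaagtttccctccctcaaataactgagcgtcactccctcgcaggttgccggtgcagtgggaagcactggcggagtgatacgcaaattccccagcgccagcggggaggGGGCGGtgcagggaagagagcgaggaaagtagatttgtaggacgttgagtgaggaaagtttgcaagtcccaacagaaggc
Col4a6: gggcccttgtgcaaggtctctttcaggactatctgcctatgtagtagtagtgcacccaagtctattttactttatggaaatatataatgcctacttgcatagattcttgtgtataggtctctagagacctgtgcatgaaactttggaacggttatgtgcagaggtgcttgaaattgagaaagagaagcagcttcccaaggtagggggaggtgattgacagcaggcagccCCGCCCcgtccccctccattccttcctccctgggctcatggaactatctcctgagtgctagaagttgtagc
The letters G and C make up 74.0% and 73.7% of the Col4a1 and Col4a2 windows and 52.7% and 48.3% of those of Col4a5 and Col4a6. Col4a2 has 3 matches to GGGCGG or its reverse complement and each of the other windows has 1. CCAAT or its reverse complement occurs once in the windows of Col4a1, Col4a2 and Col4a5. Within a window the matches do not overlap each other. The CCGCCC of the Col4a1 window and the last GGGCGG of the Col4a2 window are the same site, read on opposite strands. That site lies in the 78 bases that both windows share and is counted in each. Over all 38 windows of collagen genes, 60.5% hold GGGCGG on either strand, against 35.7% of the 32851 windows in the table, and 34.2% hold CCAAT on either strand, against 37.4%. The matches describe these letters only.

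Other collagens summed to 2457 and 2510 CPM in gated fibroblasts, a ratio of 1.02 (0.975 to 1.07). The 3 main chains of type VI collagen, which form its heterotrimer, had unlike ratios. Col6a1 stood at 580 and 462 CPM, a ratio of 0.80 (0.72 to 0.88), and Col6a2 at 363 and 250 CPM, a ratio of 0.69 (0.60 to 0.79). Col6a3 stood at 306 and 321 CPM, a ratio of 1.05 (0.92 to 1.20). Its counting interval does not overlap those of its partners, but these intervals leave out the spread among cells. Col12a1, a fibril-associated collagen known from tissues under load, was higher in the tumour library at 420 and 562 CPM, a ratio of 1.34 (1.20 to 1.49). Col14a1, its closest relative by structure, was lower at 255 and 202 CPM, a ratio of 0.79 (0.68 to 0.92). Col16a1, another fibril-associated chain, stood at 178 and 208 CPM and was counted in 55.8% and 52.0% of fibroblasts. Col8a2, a short-chain network collagen, stood at 36.3 and 43.6 CPM, and Col28a1 had 13 UMIs in each library.

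At a size of at least 1.5 times, 2 of the 25 collagen genes with 50 UMIs in fibroblasts were higher in the tumour library, Col6a5 and Col8a1, against 4.09% of 6487 genes. Lower by that size were 3, Col5a3, Col18a1 and Col23a1, against 5.1%. The median log2 ratio of the 25 genes was -0.22 and that of all genes -0.03. Col8a1, a network collagen known from vessel walls, stood at 210 and 331 CPM, with 272 and 570 UMIs in 47 and 84 fibroblasts, and 1 tumour cell held 27.9% of its UMIs. Its ratio of 1.58 (1.36 to 1.83) was 1.31 without the cell highest in each library, 1.27 without cells of 2 lineages and 0.97 in thinned cells. Col6a5, a further chain of type VI, stood at 47.8 and 82.5 CPM, with 62 and 142 UMIs in only 18 and 24 fibroblasts. Its ratio of 1.72 (1.27 to 2.36) was 1.16 without cells of 2 lineages and 1.28 when each cell weighed the same. Col23a1, a transmembrane collagen, stood at 44.0 and 22.6 CPM, with 57 and 39 UMIs in 12 and 15 fibroblasts, a ratio of 0.52 (0.33 to 0.79).

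**Figure D2:**
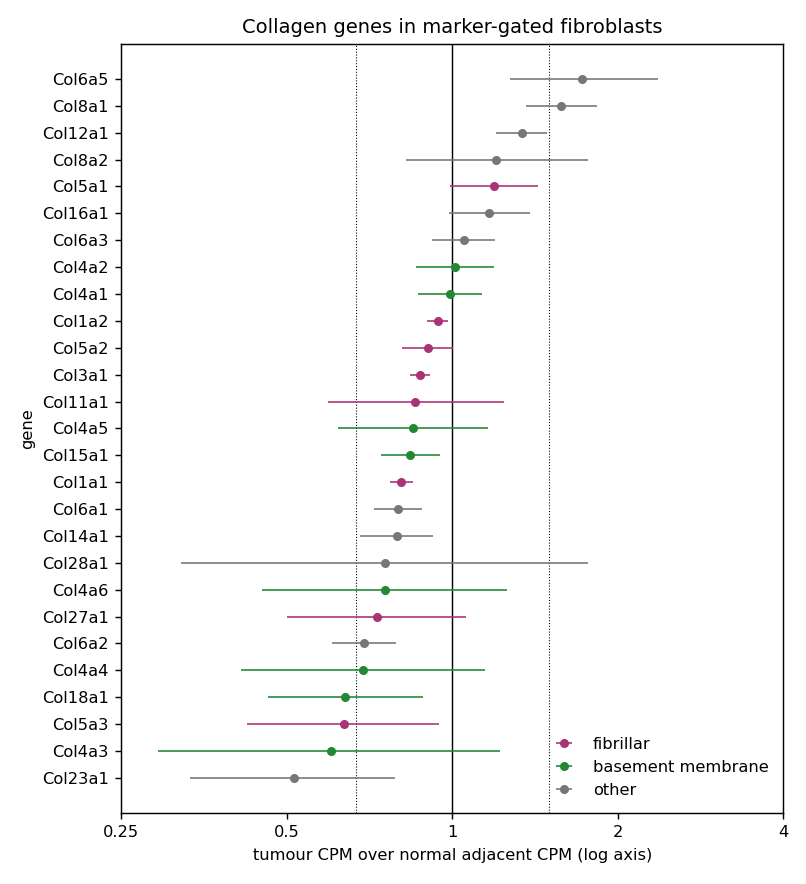
Tumour CPM over normal adjacent CPM (log axis) of 27 collagen genes with at least 20 UMIs over both libraries in marker-gated fibroblasts, with 95% counting intervals and dotted lines at 1.5 times either way. Col4a1 and Col4a2 lie at 1, Col6a5 and Col8a1 lie right of the upper line, and Col23a1 is farthest left at 0.52.

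Among single fibroblasts, partner chains were counted together, and so were some chains of different collagen types. Rank correlations were taken across the 92 and 151 gated fibroblasts with at least 2000 UMIs and no second lineage, and describe cells of 1 library that share its depth and preparation. Col1a1 and Col1a2 had a Spearman rho of 0.74 and 0.73, and Col6a1 and Col6a2 had 0.62 and 0.44. The head-to-head pairs had 0.63 and 0.40 for Col4a1 with Col4a2 and 0.65 and 0.43 for Col4a5 with Col4a6. Col1a1 with Col3a1 had 0.51 and 0.52 and Col1a1 with Col12a1 had 0.41 and 0.50, so type I chains were counted together with both. Col8a1 and Col12a1, which belong to different families, had 0.59 and 0.49. Col3a1 with Col6a1, also of different families, had 0.58 and 0.43, close to the values of Col6a1 with Col6a2. Col3a1 with Col12a1 had 0.01 and 0.06, and Col3a1 with Col8a1 had 0.07 and 0.02.

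Collagen levels also differed when fibroblasts were parted by Dpt, which encodes the collagen-binding protein dermatopontin. This split was chosen after values had been seen, and a UMI of Dpt is found more readily in deeper cells. Of the 92 and 151 cells, 53 and 82 had a Dpt UMI, at a median of 10627 and 8239 UMIs, and 39 and 69 had none, at 7627 and 8091. Cells with Dpt carried more of the complement gene C3, at 3291 against 826 CPM and at 2662 against 946 CPM. Cells without Dpt carried more Acta2, a smooth muscle and myofibroblast actin, at 664 against 203 CPM and at 713 against 125 CPM. They also carried more Mfap5, a microfibril gene, at 2286 against 1136 CPM and at 1998 against 1371 CPM, and more Pi16, a gene of adventitial fibroblasts, at 1006 against 481 CPM and at 1522 against 1026 CPM. Of 25 collagen genes with at least 20 UMIs in each library, 4 were higher with Dpt by at least 1.5 times in both libraries, Col4a5, Col4a6, Col18a1 and Col23a1, against 5.64% of 6027 genes. Lower by that size in both were 5, Col4a4, Col8a1, Col11a1, Col12a1 and Col16a1, against 6.37% of those genes, and 4 genes lay on opposite sides of 1 in the libraries.

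Type I and type III chains lay on opposite sides of this split, although they were counted together across all the cells. Col3a1 was higher in cells with Dpt, at 3456 against 2690 CPM in the normal adjacent library and at 3445 against 1779 CPM in the tumour library. Col1a1 was lower in them, at 1627 against 4221 CPM and at 1931 against 2531 CPM, and so was Col1a2, at 2478 against 3728 CPM and at 2537 against 3082 CPM. Col12a1 stood at 204 CPM with Dpt and 765 without, and at 445 and 807 CPM in the tumour library. Col11a1 was nearly confined to cells without Dpt, with 6 of its 53 UMIs and 7 of its 55 UMIs in cells with it. Col23a1 was the reverse, with 55 of 57 and 36 of 38 UMIs in cells with Dpt, and Col18a1 stood at 105 against 17.3 CPM and at 62.4 against 25.1 CPM. Col6a5 differed between the libraries, with a ratio of 1.41 (0.81 to 2.51) in the normal adjacent and 16.0 (6.59 to 50.5) in the tumour library.

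**Figure D3:**
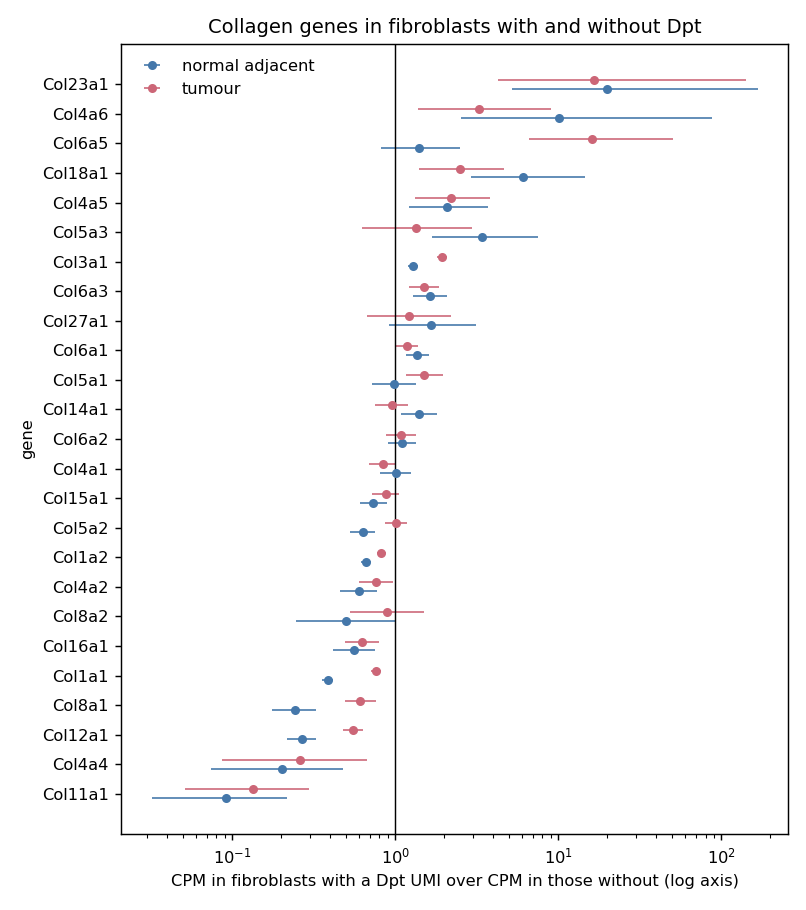
CPM in gated fibroblasts with a Dpt UMI over CPM in those without (log axis, 95% counting intervals) for 25 collagen genes in the normal adjacent (blue) and tumour (red) library. Col11a1 and Col4a4 are farthest left in both libraries and Col23a1 is farthest right.

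The machinery that makes collagen was carried by the same class. Of 20 listed enzymes and chaperones that modify or fold the chains, 12 were assigned to gated fibroblasts, against 7.29% of all genes, among them Serpinh1, the collagen chaperone HSP47, at 1477 and 1392 CPM. Of 13 genes that process or crosslink collagen 9 were assigned to fibroblasts, and of 9 proteins that bind fibrils 8 were. Of the pathway genes, 4 also served as markers in the fibroblast gate, so their assignment follows from it. Laminins and other basement membrane partners were divided, 8 of 16 to fibroblasts and 4 to basal cells (Lama3, Lamb3, Agrn and Fras1), against 1.13% of all genes in basal cells. Of 11 collagen receptors 3 went to fibroblasts and 1, the inhibitory receptor Lair1, to immune cells. Of 12 genes of degradation 7 went to fibroblasts and 3, the proteases Mmp8, Mmp9 and Mmp13, to immune cells, against 9.93% of all genes.

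Of the pathway genes with enough UMIs, 4 differed by 1.5 times between the libraries in gated fibroblasts, where 4.09% of all genes were higher and 5.1% lower by that size. Of 17 modifying genes with enough UMIs none was higher and 1 was lower, P4ha2, a subunit of prolyl hydroxylase, at 22.4 and 12.8 CPM, with an interval of 0.31 to 1.03 for the ratio. Of 9 processing genes 1 was higher, Pcolce2, an enhancer of propeptide removal, at 24.7 and 49.4 CPM, a ratio of 2 (1.32 to 3.10). Of 9 fibril-binding genes 1 was higher, Fmod, the proteoglycan fibromodulin, at 43.2 and 70.3 CPM, a ratio of 1.63 (1.18 to 2.27). Of 7 basement membrane partners 1 was lower, Lamc1, the common laminin gamma chain, at 164 and 107 CPM, a ratio of 0.66 (0.54 to 0.80). None of 4 receptors and 7 degradation genes passed that size in either direction.

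Gated basal cells carried Col17a1 and Col7a1, which met the rule for that class, and shared other collagens with fibroblasts. Col17a1, the transmembrane collagen of hemidesmosomes, was counted at 110 and 169 CPM in them, with 307 and 700 UMIs in 57 and 119 cells. Gated fibroblasts had 0 and 2 UMIs of Col17a1, and lymphocytes had one in 0.185% and 0.157% of cells. Col7a1, the anchoring fibril collagen, stood at 67.7 and 88.1 CPM in basal cells and at 10.8 and 1.16 CPM in fibroblasts. Col18a1 stood at 59.8 and 75 CPM in basal cells, against 66.3 and 42.4 CPM in fibroblasts. Col16a1 stood at 106 and 118 CPM in basal cells and 178 and 208 CPM in fibroblasts, and Col8a1 at 42.3 and 45.6 CPM and 210 and 331 CPM. Fibrillar chains were few, at 8.75 and 8.25 CPM once cells with markers of 2 lineages were left out. With those cells the levels were 8.59 and 27.5 CPM, and 2 tumour cells with fibroblast markers held 81.6% of the Col1a1, Col1a2 and Col3a1 UMIs. Dcn, a proteoglycan used as a fibroblast marker elsewhere, was itself counted at 1564 and 2038 CPM in gated basal cells, while Lum stood at 0.358 and 7.00 CPM, and Dcn was therefore not used in the gate.

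All collagen genes together stood at 517 and 642 CPM in gated basal cells, a ratio of 1.24 (1.16 to 1.33). Of the 11 collagen genes with 50 UMIs there, 2 were higher in the tumour library by at least 1.5 times, Col12a1 and Col17a1, against 4.3% of 9063 genes, and 0 were lower, against 4.81%. The median log2 ratio of the 11 was 0.22 and that of all genes -0.02. Col17a1 had a ratio of 1.54 (1.34 to 1.76) and Col12a1, at 16.1 and 24.4 CPM, one of 1.51 (1.05 to 2.20). Genes of other cell types also differed between the libraries, in both directions. The 6 seminal vesicle markers summed to 98.1 and 4582 CPM in gated basal cells, with Svs4 at 27.9 and 1885 CPM, Svs5 at 57.3 and 2494 CPM and Pate4 at 5.01 and 137 CPM, and 1 tumour cell held 49.4% of the tumour UMIs. The 5 neutrophil markers summed to 44.0 and 255 CPM, with S100a8 at 14.0 and 103 CPM, and 1 tumour cell held 48.6% of the tumour UMIs. The 7 luminal markers went the other way, at 824 and 146 CPM, with 40.3% of the normal adjacent UMIs in 1 cell. The part of these genes in the collagen ratios was not tested. The ratio also moved with the make-up of the gate. The gate admits cells by the sum of 5 markers (Krt5, Krt14, Krt15, Krt17 and Trp63), and 68.0% and 75% of gated basal cells with at least 2000 UMIs had a UMI of Krt5, Krt14 or Trp63, which define basal cells of the prostate. The other cells passed on Krt15 or Krt17 and carried Psca, a luminal progenitor gene, at 1222 and 1267 CPM, against 320 and 273 CPM.

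Within cells that had Krt5, Krt14 or Trp63 the collagen sum was 916 and 845 CPM, a ratio of 0.922 (0.863 to 0.986), so the direction turned. This subset was chosen after values had been seen. Genes of other cell types differed between the libraries in it too. The seminal vesicle markers summed to 72.4 and 6393 CPM, the neutrophil markers to 41.5 and 344 CPM and the luminal markers to 189 and 121 CPM. Col17a1 stood at 202 and 237 CPM in these cells, a ratio of 1.17 (1.02 to 1.35), and Col7a1 at 120 and 121 CPM, a ratio of 1.01 (0.84 to 1.21). Col18a1 stood at 109 and 103 CPM, Col16a1 at 193 and 164 CPM and Col8a1 at 77.6 and 63.6 CPM. Type IV chains stood lower in the tumour library, Col4a1 at 32.2 and 26.1 CPM, Col4a2 at 25.7 and 13.9 CPM, Col4a5 at 34.2 and 23.7 CPM and Col4a6 at 28.3 and 19.3 CPM. Of these 4 ratios the interval of Col4a2 alone, 0.34 to 0.86, excludes 1.

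The basal collagens were counted mostly in those cells. Cells without Krt5, Krt14 and Trp63, 31 and 46 in number and at a higher median of 35138 and 27567 UMIs against 21941 and 18490, had no Col17a1 UMI. Against the 3 UMIs that a count of 0 allows over each group, Col17a1 was at least 84.3-fold and 93.1-fold higher in cells with them. Col7a1 had 182 and 357 UMIs in cells with these markers and 2 and 4 in cells without, and Col8a1 had 118 and 188 against 0 and 1. Col16a1 had 294 and 485 UMIs against 1 and 5. Dcn followed the same split in the normal adjacent library, at 2844 CPM with the markers and 3.99 CPM without. In the tumour library the gap was smaller, at 2721 CPM with the markers and 334 CPM without. There 6 cells without the markers held 394 UMIs of Dcn. Of 11 collagen genes with at least 20 UMIs in each library, 10 were over 2 times higher in cells with the markers in both libraries, against 6.89% of 8978 genes. The exception was Col14a1, which was 4.12 times higher in the normal adjacent library. In the tumour library its 14 UMIs in cells without the markers were all in 1 cell. Col25a1, a transmembrane collagen, went the other way in both libraries. It had 2 and 3 UMIs in cells with the markers and 15 and 7 in cells without.

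**Figure D4:**
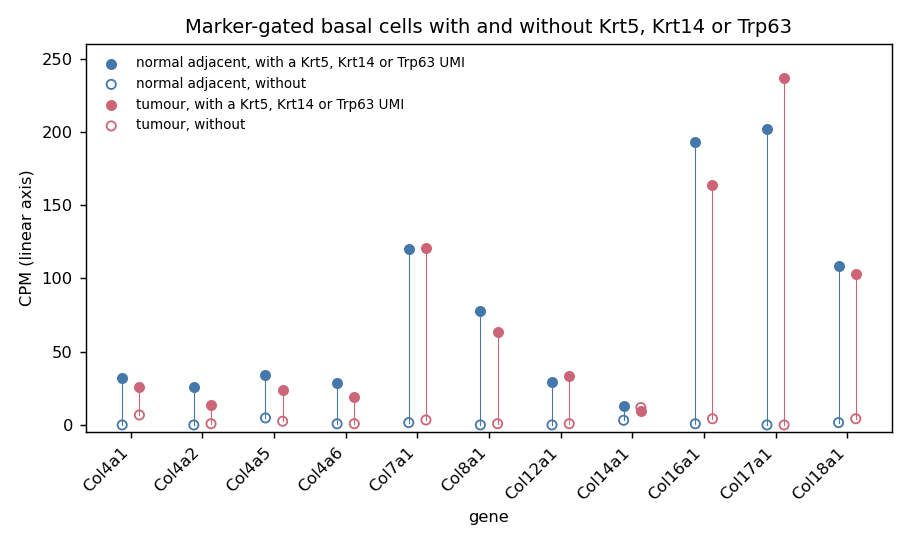
CPM (linear axis) of 11 collagen genes in marker-gated basal cells of at least 2000 UMIs with (filled) and without (open) a UMI of Krt5, Krt14 or Trp63, in the normal adjacent (blue) and tumour (red) library. Open points reach at most 11.9 CPM, for Col14a1 in the tumour library with all UMIs in 1 cell. Filled points of Col17a1 reach 202 and 237 CPM.

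Luminal progenitor cells held few collagen molecules, 49 and 625 UMIs in all, or 29.8 and 196 CPM. The ratio of 6.56 (4.90 to 8.97) rests on few cells, since 3 tumour cells that also carry fibroblast markers held 330 of the 333 UMIs of Col1a1, Col1a2 and Col3a1. Without cells of 2 lineages the levels were 28.1 and 44.9 CPM, a ratio of 1.60. Col25a1, a transmembrane collagen best known from neurons, was the most regular collagen of this class, with 20 and 55 UMIs spread over 13 and 31 cells, 12.2 and 17.2 CPM. Its interval for the ratio, 0.83 to 2.49, includes 1. No UMI of Col25a1 was found in gated fibroblasts, and lymphocytes had 1 and 0. Col8a1 and Col12a1 had no UMI in the normal adjacent cells and 35 and 64 UMIs in 4 and 3 tumour cells.

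Other non-immune cells, mainly epithelial cells by their markers (71 and 100 cells with the epithelial list highest, 51 and 22 with the luminal list), held 199 and 189 collagen UMIs. Their level of 140 and 109 CPM, a ratio of 0.780 (0.636 to 0.957), rests on single cells and turned to 1.28 without the cell highest in each library. Endothelial cells were nearly missing, with 1 and 3 cells led by that list, and mural cells likewise with 1 and 3, so type IV collagen of vessels was not measured here. Col18a1 had 23 and 52 UMIs in 3 and 15 of these cells, with 17 of the 23 in 1 cell. Col20a1, a fibril-associated chain, had 27 and 5 UMIs, with 23 of the 27 in 1 cell. Col16a1 had 19 and 6 UMIs, Col6a3 9 and 21 UMIs and Col4a1 11 and 18 UMIs in at most 6 cells each.

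In immune cells 1 collagen gene, Col14a1, made up most collagen UMIs. It had 2666 and 3873 UMIs in 942 and 1365 immune cells, which is 58.3% and 50.6% of the collagen UMIs of the class. Among the gated subsets Col14a1 was highest in macrophages, at 91.9 and 102 CPM, a ratio of 1.11 (1.02 to 1.21). Macrophages held 28.8% and 43.7% of the Col14a1 UMIs of immune cells. Most of the rest, 67.6% and 52.7%, lay in the 2061 and 2508 immune cells that no subset took in, at 47.5 and 52.7 CPM and in 27.9% and 28.1% of those cells. Their median macrophage score was 32.9 and 35.7 per 10000, against 147 and 151 in gated macrophages. The median dendritic score of these remaining cells was 45.8 and 46.0, against 141 and 133 in gated macrophages. Their median T and NK score was 15.9 and 10.8, against 0.788 and 0, so they were not gated as 1 cell type. A UMI was found in 50.8% and 55.0% of macrophages, at a median of 10360 and 11684 UMIs per cell, and in 1.25% and 1.83% of lymphocytes. With cells thinned to 1000 UMIs the shares were 9.52% and 11.0% of macrophages against 0.286% and 0.318% of lymphocytes. Dendritic cells stood at 1.21 and 1.08 CPM and neutrophils at 5.68 and 4.88 CPM. Immune cells with UMIs of both Ccr7 and Fscn1 stood at 30.0 and 30.1 CPM of Col14a1, with a UMI in 12.4% and 20.3% of them. No single macrophage held more than 18 of the 769 and 24 of the 1691 UMIs of Col14a1. Per 100 UMIs of Col1a1, Col1a2 and Col3a1 together, fibroblasts carried 2.98 and 2.69 UMIs of Col14a1, lymphocytes 18.2 and 33.0 and macrophages 2024 and 613. The part of free RNA in these counts was not tested. The level in macrophages was below that in fibroblasts, 255 and 202 CPM.

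A pair of further collagens, Col15a1 and Col27a1, had low but uneven levels among immune cells. Col27a1 stood at 16.8 and 21.2 CPM in immune cells with UMIs of both Ccr7 and Fscn1, genes of migratory dendritic cells, in 20.2% and 25.2% of 89 and 143 such cells. It stood at 8.01 and 6.64 CPM in dendritic cells, 6.10 and 6.78 CPM in macrophages and 1.06 and 1.35 CPM in lymphocytes. Neutrophils had 0 and 1 UMIs of Col27a1. The Ccr7 and Fscn1 subset was chosen after values had been seen. Col15a1 stood at 10.7 and 9.01 CPM in neutrophils and 5.02 and 7.20 CPM in macrophages, against 0.747 and 0.748 CPM in lymphocytes. Col11a2 had 53 and 86 UMIs in 49 and 83 immune cells, over 69734125 and 79661223 UMIs of that class. Fibroblasts had none over far fewer, 1296483 and 1722110 UMIs, so this count of 0 does not set them below immune cells. Basal cells with Krt5, Krt14 or Trp63 had 2 and 6 UMIs of Col11a2, 1.32 and 2.03 CPM. Col9a3, a fibril-associated chain of cartilage, had 31 and 44 UMIs, each in a cell of its own.

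**Figure D5:**
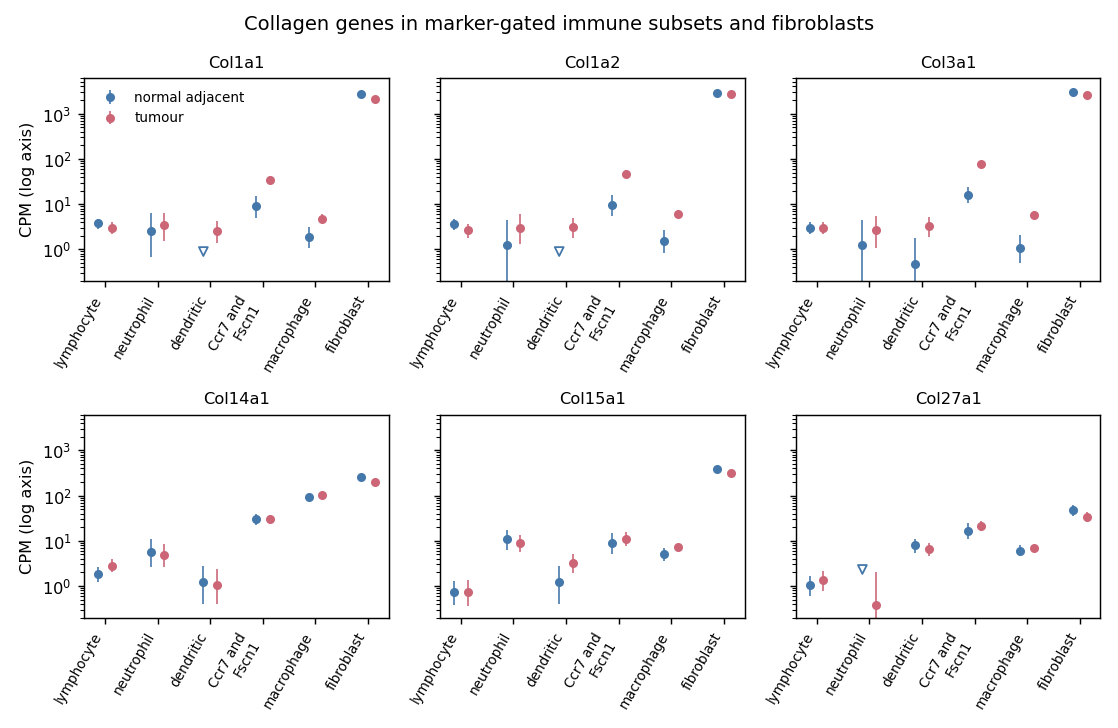
CPM (log axis, 95% counting intervals, open triangles give the upper end of the interval where no UMI was counted) of 6 collagen genes in immune subsets and fibroblasts of the normal adjacent (blue) and tumour (red) library. Col14a1 rises from 1.87 and 2.84 CPM in lymphocytes to 91.9 and 102 CPM in macrophages, while Col1a1, Col1a2 and Col3a1 reach at most 6.17 CPM in macrophages.

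In immune cells most UMIs of the 3 main fibrillar chains came with fibroblast markers, while those of Col27a1 did not. Col27a1 had 306 and 415 UMIs in immune cells, 304 and 404 of them in cells without a second lineage. Immune cells held 14.3 and 28.0 CPM of fibrillar collagen, a ratio of 1.96 (1.82 to 2.11), and 9.12 and 12.4 CPM without cells of 2 lineages, a ratio of 1.36. The 13 and 38 immune cells with fibroblast markers held 58.0% and 71.8% of the Col1a1, Col1a2 and Col3a1 UMIs. Lymphocytes stood at 13.1 and 12.4 CPM of fibrillar chains. Of the 27 UMIs of Col3a1 in Ccr7 and Fscn1 cells of the normal adjacent library, all were in 1 cell, and of the 213 in the tumour library 166 were. All collagen genes together stood at 65.5 and 96.1 CPM in immune cells, a ratio of 1.47 (1.41 to 1.52) that was 1.27 without cells of 2 lineages. Col28a1 had 16 UMIs in immune cells of the normal adjacent library, of which 15 were in 1 cell. Whether fibroblast RNA in the same droplet accounts for the remaining fibrillar UMIs was not tested.

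The other 11 collagen genes had under 20 UMIs in every class. They include the cartilage chains Col2a1, Col9a1, Col9a2 and Col10a1, with 0, 3, 4 and 8 UMIs over all classes and both libraries. Col6a4 had 22 and Col6a6 11, so the long alternative chains of type VI were mainly seen as Col6a5. Col22a1 had 15, Col13a1 12, Col26a1 4, Col24a1 3 and Col19a1 2. At these counts a difference between the libraries was not detectable.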

How the data were processed

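Single-cell RNA was measured in 1 tumour and 1 normal adjacent library. As deposited, the values are raw UMI counts by gene and barcode. Per the file headers, Cell Ranger 4.0.0 made them. R 4.0.3, Seurat 3.2.2 and GRCh38, a human build, come from the submitters' processing notes, while the symbols are those of mouse genes. The build of the mouse genome used for counting is named nowhere in these sources.

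Barcodes with at least 200 genes and at most 20% mitochondrial UMIs were kept (6209 and 7768). Cells were gated on summed marker UMIs per 10000, with at least 3 marker UMIs outside the immune gate and cuts of 15 for 11 fibroblast markers (Dcn left out) and 30 for the other lists. Cells past the immune cut stayed immune unless their epithelial or fibroblast level was higher. Cells of 2 lineages stayed in, and no doublet caller was run. Between the cut and its double lay 22 and 32 cells for the basal list and 36 and 66 for the luminal progenitor list. Median fibroblast, luminal progenitor and immune scores of gated basal cells were 8.52, 23.1 and 2.67 per 10000 in the normal adjacent library and 11.0, 21.5 and 2.09 in the tumour library. Median immune, epithelial and mural scores of gated fibroblasts were 8.30, 0 and 2.94 and then 7.15, 0 and 2.75.

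UMIs were summed per library and class. CPM has exact Poisson, and ratios exact conditional binomial, 95% intervals. Depth was 1296483 and 1722110 UMIs in fibroblasts and 2792579 and 4145236 in basal cells. Ratios were called past 1.5 after adding 0.5 UMIs. Every collagen gene with at least 20 UMIs in a class was to be named with values. The ratio, interval and call were run on simulated Poisson counts. These share the assumption of the intervals and leave out the spread among cells, so they do not test the intervals for that spread. Collagen genes, lists and subsets were chosen with earlier results of these data known, and the gate cuts after marker scores were seen. Tools were Python 3.11.15, NumPy 2.4.6, SciPy 1.17.1, pandas 2.3.3 and matplotlib 3.10.9.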

Additional observations from a re-analysis of the deposited data

How the results depend on the processing

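Each of 7 summed levels was recomputed under 9 alternatives and, added after the data were seen, without the cell highest in each library and, for basal cells, in cells with Krt5, Krt14 or Trp63. Of these 70 values 52 stayed within the counting interval of the reported ratio, 11 moved outside it and 7 turned direction. The fibrillar ratio in fibroblasts turned to 1.06 with cells weighed equally and 1.05 in thinned cells and moved to 0.909 without the highest cells. The ratio of other collagens in fibroblasts moved to 0.948 without cells of 2 lineages. In basal cells the ratio moved to 1.02 with marker minimums doubled and 1.38 with them halved and turned to 0.922 in cells with Krt5, Krt14 or Trp63. In luminal progenitor cells it moved to 1.60 without cells of 2 lineages, 4.69 and 1.74 with minimums doubled and halved, 2.49 with cells weighed equally and 35.9 with the lymphocyte level subtracted. In other non-immune cells it turned to 1.35 with minimums doubled, 1.02 with cells weighed equally, 1.15 in thinned cells and 1.28 without the highest cells. In immune cells it moved to 1.27 without cells of 2 lineages and 1.35 with minimums doubled.

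Of 613 values for 63 gene ratios, 520 stayed within the interval, 89 moved and 4 were counted as turned. Those 4 were Col1a1 in luminal progenitor cells (0.27) and Col5a1 in immune cells (0.88) without cells of 2 lineages, Col8a1 in thinned fibroblasts (0.97) and Col18a1 in other non-immune cells weighed equally (0.91). The ratios of Col1a1 and Col3a1 in fibroblasts also went from below 1 to above it with cells weighed equally, as given above. They are not among those 4. The cause of these changes was not tested. Subtraction of the lymphocyte level was not run for immune cells, which include the lymphocytes. No paired analysis was possible because each tissue has 1 library and no test. With 1 library per tissue, differences between animals, dissections and tissues cannot be told apart. Thinning left few UMIs for all but the most counted genes.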
